A study of Mus musculus with 2 samples.

Results

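The p53 target genes and p53 regulators on these arrays were 37 listed genes, found by gene symbol with no threshold on their values, though the list was drawn up with earlier results of these data known. Of these, 35 had at least 1 probe set named for them in the platform annotation, with 63 probe sets in all out of 45101 on the array. Trp53 itself and Bax had no probe set under their own symbol in that annotation and were not analysed here. Total RNA came from NIH3T3 cells, an immortalised line of mouse embryonic fibroblasts grown in medium with fetal bovine serum. Both cultures had been infected with a retrovirus that expresses a short hairpin RNA. In the culture labelled CCR4b RNAi the hairpin targeted CCR4b (CNOT6L), an enzyme of CCR4-NOT, the main machinery that trims poly(A) tails from mRNAs, and in the culture labelled Control RNAi it was a control. There was 1 array per group, so no value has a replicate error and no test between the cultures was possible. The sources used here do not give the time after infection, or say whether the infected cells were a pool or a clone. All ratios set CCR4b RNAi over Control RNAi, and a gene called higher or lower is so between these arrays, with no claim beyond them.

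p53 is a transcription factor that accumulates after DNA damage and other stresses. It switches on genes that halt the cell cycle, repair DNA, adjust metabolism or trigger apoptosis. MDM2, itself a p53 target, binds p53 and marks it for degradation, which closes a negative feedback loop, and MDM4 restrains p53 alongside it. NIH3T3 cells are known to lack the Ink4a/Arf locus (Cdkn2a), whose ARF product inhibits MDM2, while keeping functional p53.

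The arrays were alike in overall signal, with medians of 7.81 units (Control RNAi) and 8.34 units (CCR4b RNAi). A floor of 8.07 units, the median of all values of both arrays, served as the limit of measurement, since no detection calls came with the values. A gene was counted as measured where its brightest probe set reached the floor on at least 1 array, which held for 11915 genes and for 32 of the listed genes. Cnot6l, the targeted gene, went from 102 units in the control to 43.0 units on its brightest probe set (2.38-fold lower). All 9 fibroblast markers examined were measured, with summed signals of 17174 and 19338 units. The summed signals of 6 epithelial markers were 46.4 and 49.4 units, those of 5 macrophage markers 82.0 and 78.9 units, and those of 4 endothelial markers 12.2 and 12.4 units. Of these, all 4 endothelial markers, 5 of the 6 epithelial ones (Epcam read 19.4 and 29.5 units) and Ptprc among the macrophage ones were below the floor on both arrays. The other 4 macrophage markers were measured and went different ways, among them Cd68 from 24.0 to 9.42 units and Cd14 from 21.3 to 38.2 units. The part of other cell types in the results was not tested. In such bulk RNA, fewer cells that express a gene and less of its mRNA per cell cannot be told apart.

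Across the listed genes, 5 of 32 were at least 1.5-fold higher after CCR4b RNAi and 0 of 32 were at least 1.5-fold lower. The same folds were passed by 11.3% of all measured genes upward and by 14.6% downward. The higher genes were Zmat3, Eda2r, Polk, Cdkn1a and Phlda3. They are spread over arrest, apoptosis, DNA repair and RNA binding, and the other 27 lay within 1.5-fold. At 2-fold, 3 were higher (Zmat3, Eda2r and Polk), beside 3.74% of all measured genes, and 0 were lower, beside 4.48%. With a floor at the 75th percentile of signals, Zmat3 alone passed 2-fold. The median log2 ratio of the 32 genes was 0.13, against -0.070 for all measured genes. Of the 32, 23 lay above the median of genes of like signal, taken from 10 equal classes of mean signal, beside 5955 of all 11915 measured genes. The count of 0 lower genes depended on the handling of the arrays: it was 2 after division by the array medians, 3 when the median over a gene's probe sets was used, and 1 without the probe sets that may cross-hybridise.

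**Figure D1:**
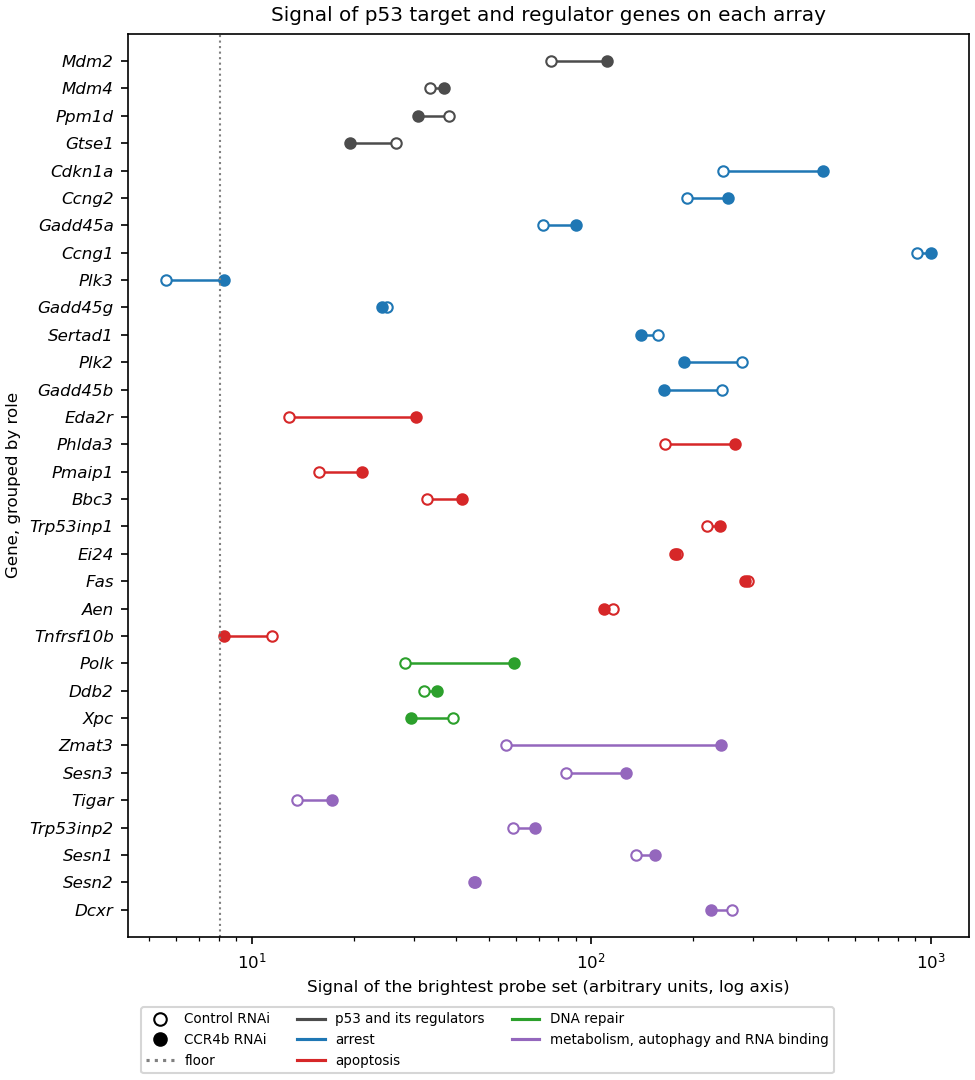
Signal on each array for the brightest probe set of the 32 measured genes, in arbitrary units on a log axis, grouped by role and coloured by it. Open circles are Control RNAi, filled circles CCR4b RNAi, each 1 array, and the dotted line is the floor of 8.07 units. Zmat3 has the longest bar, from 56.0 to 242 units.

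**Figure D2:**
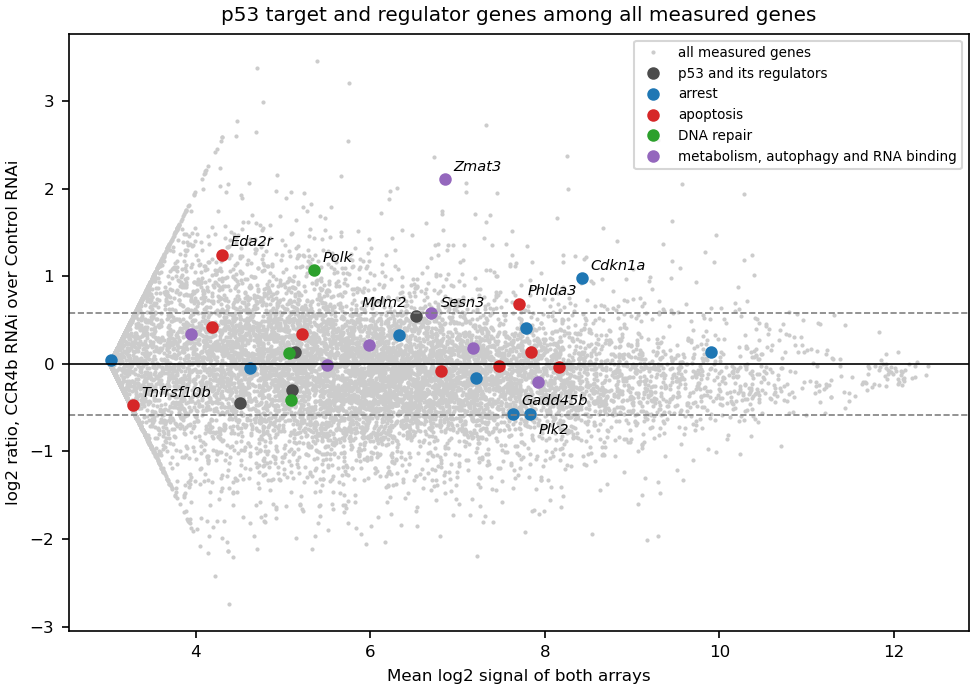
Each point is a gene, with the mean log2 signal of both arrays on the horizontal axis and the log2 ratio of CCR4b RNAi over Control RNAi on the vertical axis. Grey points are all 11915 measured genes, coloured points the 32 measured p53 genes by role, and dashed lines mark 1.5-fold. The coloured points above the upper line are Zmat3, Eda2r, Polk, Cdkn1a and Phlda3, and none lies below the lower line.

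The plot of signals shows each gene's pair of values, and the plot against all measured genes shows how wide the ratios of other genes are at the same signal. That width depended on signal: the robust SD of the log2 ratios, a scaled median absolute deviation, was 0.84 in the second dimmest of the 10 classes, which holds Tnfrsf10b, and 0.36 in the brightest, which holds Cdkn1a. In the dimmest class, which holds Plk3 and where the floor limits the ratios, it was 0.28. This spread contains real differences between the cultures as well as measurement error. The median log2 ratio also depended on signal, at 0.10 in the second dimmest class and -0.17 in the brightest. Among bright genes the 1.5-fold limit was thus nearer to the class median downward than upward.

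Among p53 regulators, Mdm2 was higher, and Mdm4 and Ppm1d gave mixed or lower readings. Mdm2, which encodes the ubiquitin ligase of p53, went from 76.1 to 111 units on its brightest probe set (log2 ratio 0.55, 1.46-fold). Its second probe set read 71.0 and 91.9 units (1.30-fold), so both were higher, by less than 1.5-fold. The brighter ratio lay at percentile 93.3 of genes of like signal. Mdm2 passed 1.5-fold when the arrays were quantile-normalized or corrected by loess.

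Mdm4, which encodes the MDM2 partner that holds p53 inactive, depended on the probe set. The brightest, which is open to cross-hybridisation, read 33.4 and 36.9 units (log2 ratio 0.14). The next read 18.3 and 11.8 units, 1.55-fold lower, and the dimmest measured one passed from 14.9 units to below the floor, at least 1.85-fold lower. No single direction for Mdm4 follows from these readings. Ppm1d encodes the WIP1 phosphatase, which reverses damage signalling to p53. It read 38.1 and 31.0 units on 1 probe set (1.23-fold lower) and 32.5 and 21.2 units on the other (1.53-fold lower). Gtse1, which encodes a G2 and S phase protein that binds p53, read 26.6 and 19.5 units (1.37-fold lower), less than the robust SD of 0.58 log2 units among genes of like signal. Cdkn2a was below the floor on both arrays, at 3.49 and 2.90 units. The median log2 ratio of the 4 measured regulators was -0.081, close to that of all measured genes, but -0.45 with the median over each gene's probe sets.

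Of the 10 arrest genes, 9 were measured, 1 was at least 1.5-fold higher and 0 were as much lower, beside 11.3% and 14.6% of all measured genes. Cdkn1a, which encodes the CDK inhibitor p21, read 245 and 481 units on its brightest probe set (log2 ratio 0.98, 1.97-fold). The second probe set read 228 and 488 units (2.14-fold). Both were thus about as far apart between the cultures. The brighter ratio lay at percentile 98.2 of genes of like signal.

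Because Cdkn1a is the standard direct target of p53, promoter windows of 300 bases around annotated gene starts were searched for the p53 half-site consensus, a 10-base palindrome matched on both strands at once. The windows are from RefSeq (GRCm38.p6) and run from 250 bases before a gene's start to 50 after it. They held 30 of the 37 genes in 39 windows, since some genes have several starts. Of the 39 windows, 13 (33.3%) held at least 1 exact half-site, beside 2745 of all 32851 windows (8.36%). The overlapping windows of Aen share the same half-site. Counted by gene, 12 of 30 (40%) held one, beside 2582 of all 27025 genes with a window (9.55%). Only the Cdkn1a window at chr17:29090729-29091028 (plus strand) among the 39 held 2 exact half-sites with at most 13 bases between them, beside 24 of all windows (0.0731%). In it they occupy bases 178 to 187 and 200 to 209, separated by 12 bases. The second annotated start of Cdkn1a had no half-site in its window. The window is printed with the exact half-sites in capitals.

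Cdkn1a: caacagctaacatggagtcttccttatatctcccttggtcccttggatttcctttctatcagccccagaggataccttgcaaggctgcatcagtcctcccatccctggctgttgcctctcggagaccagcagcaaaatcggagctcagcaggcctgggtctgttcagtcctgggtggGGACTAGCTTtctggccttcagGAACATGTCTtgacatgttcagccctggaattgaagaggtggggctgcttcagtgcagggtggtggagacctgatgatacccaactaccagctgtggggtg

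Allowing 1 mismatch in a pair, outside the fixed C and G of each half-site, added Ccng1 (chr11:40755447-40755496, minus strand) and Gtse1 (chr15:85859930-85859979, plus strand), in both of which the half-sites adjoin. Such pairs stood in 3 of the 39 windows (7.69%) and in 206 of all windows (0.627%). In the printed Cdkn1a window, the bases directly after the second exact half-site, tgacatgttc, also match with 1 mismatch, at their first base. That window therefore holds an adjoining pair with 1 mismatch besides its exact pair. Single half-sites of Ppm1d (log2 ratio -0.30), Aen (-0.088), Ei24 (-0.023), Sesn1 (0.18), Gadd45a (0.32), and of Trp53 and Bax (no probe set), are not printed. Single half-sites are shown for Mdm2 (chr10:117710915-117710964, minus strand) and for Polk (chr13:96519389-96519437, minus strand), which were higher after CCR4b RNAi. The Polk half-site lies in the window of 1 of its 2 annotated starts. All are written 5′ to 3′ on the gene's strand, and the capitals mark the matched pair or half-site.

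Ccng1: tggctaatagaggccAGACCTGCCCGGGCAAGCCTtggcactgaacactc

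Gtse1: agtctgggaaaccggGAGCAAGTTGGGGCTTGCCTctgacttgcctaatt

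Mdm2: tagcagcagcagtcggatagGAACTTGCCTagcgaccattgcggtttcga

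Polk: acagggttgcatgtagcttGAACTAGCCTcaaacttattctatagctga

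A match describes letters in a window and is not evidence of p53 binding, and much p53 binding lies outside such windows. The genes with and without a match had similar ratios. The 10 measured genes with a half-site had a median log2 ratio of 0.15, from -0.45 (Gtse1) to 1.07 (Polk), and 2 were at least 1.5-fold higher. The 16 measured genes with a window but no half-site had a median of 0.090, from -0.57 (Gadd45b) to 1.24 (Eda2r), and 2 were at least 1.5-fold higher. In each group 0 were at least 1.5-fold lower. Of all measured genes, 11.3% were higher and 14.6% lower by that fold. The remaining measured genes, 6 in number, had no window in the table.

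Ccng1 and Ccng2 encode cyclin G1, a p53 target that acts back on p53 and MDM2, and its relative cyclin G2, an inhibitory cyclin raised in resting cells. Ccng1, whose window holds adjoining half-sites, read 913 and 999 units on its brightest probe set (log2 ratio 0.13), 586 and 453 units on the next (1.29-fold lower) and 284.1 and 299.7 units on the dimmest. The 3 probe sets of Ccng1 therefore scattered around no difference. Ccng2 read 191 and 253 units (1.32-fold higher) and 86.8 and 107 units (1.24-fold higher), higher on both.

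The GADD45 stress sensors went different ways. Gadd45a, the p53-responsive member, read 72.0 and 90.0 units (1.25-fold higher). Gadd45b read 242 and 163 units (log2 ratio -0.57, 1.48-fold lower), 220.1 and 141 units (1.56-fold lower) and 20.5 and 9.20 units (2.22-fold lower), so all 3 of its probe sets were lower. The brightest ratio lay at percentile 16.5 of genes of like signal. It was 0.40 log2 units below their median of -0.16, just within their robust SD of 0.41. Gadd45g, the third member, read 25.1 and 24.2 units (log2 ratio -0.048).

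Plk2, which encodes a p53-responsive polo-like kinase, read 278 and 188 units (1.48-fold lower), and its dim second probe set was below the floor on both arrays. The ratio of Plk2 also lay at percentile 16.5 of genes of like signal, within their robust SD of 0.41 around the median. Plk2 and Gadd45b were the genes that passed 1.5-fold downward after division by the array medians. Plk3, a related kinase, passed from 5.61 to 8.30 units, barely over the floor. Sertad1, which encodes a CDK4-binding regulator, read 157 and 140.5 units (log2 ratio -0.16). Rprm, which encodes the G2 arrest protein reprimo, was below the floor on both arrays. The median log2 ratio of the 9 measured arrest genes was 0.040, and it was 0.041 over the 8 that were above the floor on both arrays.

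Of the 11 apoptosis genes, 9 were measured, 2 were at least 1.5-fold higher and 0 were as much lower, with the same shares of all measured genes beside them (11.3% and 14.6%). Eda2r, which encodes a TNF receptor family member induced by p53, read 12.8 and 30.4 units (log2 ratio 1.24, 2.37-fold higher). It was dim in the control, and with a floor at the 75th percentile of signals it was no longer measured or counted among the higher genes. Its ratio lay at percentile 92.0 of genes of like signal, whose robust SD was 0.68. Phlda3, which encodes a repressor of AKT signalling, read 165 and 265 units (log2 ratio 0.69, 1.61-fold higher), at percentile 96.2 of genes of like signal.

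The BH3-only activators of mitochondrial apoptosis were slightly higher and dim. Bbc3, which encodes PUMA, read 32.9 and 41.7 units (1.27-fold higher). Pmaip1, which encodes NOXA, read 15.8 and 21.1 units (1.34-fold higher). Both differences were smaller than the robust SD of their signal classes, 0.57 and 0.68 log2 units.

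The death receptors were not higher. Fas read 290 and 283 units (log2 ratio -0.034). Tnfrsf10b, which encodes the mouse TRAIL receptor, read 11.4 and 8.27 units (log2 ratio -0.47), close to the floor after CCR4b RNAi, and its second probe set was below the floor on both arrays. Fas changed sign under quantile normalization and under loess, as did Ei24, Aen and Sesn2, since their ratios were close to 0.

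Ei24, which encodes a protein of the endoplasmic reticulum, read 179 and 176 units (log2 ratio -0.023). Aen, which encodes a nuclease that degrades DNA in apoptosis, read 116 and 109 units and 65.6 and 61.0 units on its bright probe sets (log2 ratios -0.088 and -0.10). Another, dim probe set passed from 4.66 units to 17.7, at least 2.19-fold higher. Trp53inp1, which encodes a p53-induced nuclear protein, read 219 and 240 units on its brightest probe set (log2 ratio 0.13) but 22.1 and 8.10 units on its dim one (2.72-fold lower). For Aen and Trp53inp1 the dim probe set thus opposed the bright one. Perp, which encodes a membrane protein of desmosomes, was below the floor on both arrays.

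Arrest and apoptosis genes differed little as groups. The median log2 ratio of the 9 measured apoptosis genes was 0.13 and that of the 9 measured arrest genes 0.040, a difference of 0.093. Their ranges overlapped widely, from -0.47 to 1.24 for apoptosis and from -0.57 to 0.98 for arrest. The order of these medians was not stable: taking the median over a gene's probe sets gave -0.023 for apoptosis and 0.040 for arrest. With no floor arrest had 0.22 and apoptosis 0.14, but over a changed set of genes. Rprm then entered the arrest genes and Perp the apoptosis genes, both below the floor on both arrays, so that reversal rests on dim readings. The plot of every measured probe set shows these genes side by side.

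**Figure D3:**
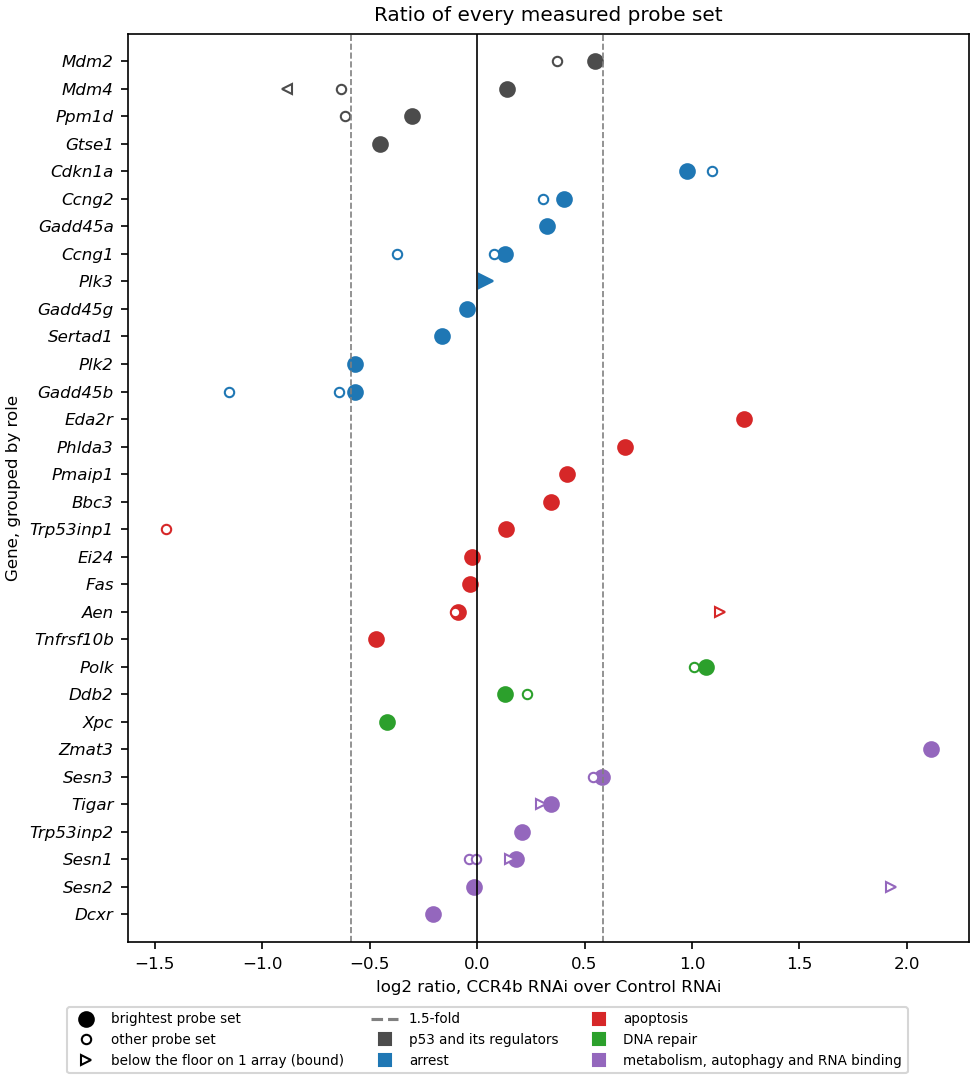
Log2 ratio of CCR4b RNAi over Control RNAi for the measured probe sets of the 32 measured genes, grouped by role. Large filled symbols are the brightest probe set of a gene, small open symbols its other probe sets, triangles are bounds where 1 array was below the floor, and dashed lines mark 1.5-fold. Both probe sets of Cdkn1a, Polk and Sesn3 lie close together, whereas those of Sesn2, Trp53inp1 and Mdm4 fall on either side of 0.

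Of the 3 DNA repair targets, all measured, 1 (Polk) was at least 1.5-fold higher and 0 were as much lower. The shares of all measured genes were 11.3% and 14.6%. Polk encodes DNA polymerase kappa, which copies past damaged bases. It read 28.2 and 59.1 units (log2 ratio 1.07, 2.09-fold higher) and 15.1 and 30.4 units on its second probe set (2.01-fold higher). The brighter ratio lay at percentile 96.0 of genes of like signal, and the probe sets gave near-equal folds. Ddb2 and Xpc encode damage sensors of nucleotide excision repair. Ddb2 read 32.2 and 35.2 units on its brightest probe set, which is open to cross-hybridisation, and 29.0 and 34.0 units on the other (log2 ratios 0.13 and 0.23). Xpc read 39.3 and 29.4 units (1.34-fold lower).

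The remaining targets act in metabolism, autophagy and RNA binding. Of these 7 genes, 1 was at least 1.5-fold higher and 0 were as much lower, beside 11.3% and 14.6% of all measured genes. The ratios of 6 of the 7 lay above the median of genes of like signal, that of Sesn2 by only 0.017 log2 units. Of all 11915 measured genes, 5955 lay above it. Zmat3, which encodes a p53-induced zinc finger protein that binds RNA, had the largest ratio of all listed genes. On its single probe set the signal was 56.0 units under Control RNAi and 242 units under CCR4b RNAi (log2 ratio 2.11, 4.32-fold higher), at percentile 99.9 of genes of like signal. The annotation names no other probe set for Zmat3, so the value rests on that one.

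The sestrins are stress-induced inhibitors of mTORC1. Sesn3 read 84.5 and 127 units (log2 ratio 0.58, 1.497-fold) and 68.9 and 100.3 units (1.46-fold), just under 1.5-fold on both probe sets, and passed it under quantile normalization and under loess. Sesn1, the classical p53-induced sestrin, read 136 and 154 units on its brightest probe set, which is open to cross-hybridisation, and 90.2 and 87.8 units and 87.7 and 87.5 units on the next ones (log2 ratios 0.18, -0.038 and -0.0042). Its dimmest probe set passed from 5.80 to 8.98 units. Sesn2 read 45.5 and 45.1 units on its brighter probe set, but its dimmer one passed from 6.70 units, below the floor, to 30.6, at least 3.80-fold higher. Sesn3 was therefore the member of the family whose probe sets were higher together.

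Tigar, which encodes a phosphatase that slows glycolysis, read 13.6 and 17.3 units (1.27-fold higher), and its second measured probe set passed from 5.56 to 9.93 units. Trp53inp2, which encodes an autophagy regulator, read 58.9 and 68.2 units (1.16-fold higher). Dcxr, which encodes a sugar and carbonyl reductase, read 260.1 and 226 units (1.15-fold lower). In all, 15 of the 32 genes had several measured probe sets, which shared a sign in 9 genes and did not in 6 (Aen, Ccng1, Mdm4, Sesn1, Sesn2 and Trp53inp1).

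The rest of the pathway was described by further gene lists, drawn up with earlier results of these data known, so their counts are descriptions. Kinases and cofactors that act on p53 had a median log2 ratio of -0.20 over 26 measured genes, of which 1 (3.85%) was at least 1.5-fold higher and 3 (11.5%) were as far below, beside 11.3% and 14.6% of all measured genes. The lower count was 1 with the median over probe sets and 5 after division by the array medians. Hipk2, which encodes a kinase that phosphorylates p53, read 128 and 197 units (1.54-fold higher), and its 7 measured probe sets were all higher. Chek1, which encodes a DNA damage checkpoint kinase, read 49.0 and 21.3 units (2.30-fold lower) on a probe set that may cross-hybridise, and 24.2 and 14.5 units on the next (1.66-fold lower). Pml, which encodes a scaffold of nuclear bodies, read 68.4 and 40.8 units (1.68-fold lower), but 46.0 and 36.5 units (1.26-fold lower) and 10.6 and 10.8 units on its other probe sets.

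Other p53 targets, 32 of them measured, had a median log2 ratio of 0.13. Of these, 4 (12.5%) were at least 1.5-fold higher, near the 11.3% of all measured genes. As far below were 2 (6.25%), beside 14.6% of all measured genes. The higher count was 8 under quantile normalization and under loess, and 0 with a floor at the 75th percentile. The lower count ranged from 1 to 4 over the alternatives. Tap1, a peptide transporter gene, read 11.5 and 23.9 units (2.07-fold higher). It was dim in the control, and its other probe sets were below the floor on both arrays. Rrm2b, which encodes the p53-inducible ribonucleotide reductase subunit, read 21.2 and 36.6 units (1.72-fold higher), but its dimmer probe set had a log2 ratio of -0.75. Ckap2, which encodes a spindle protein, read 293 and 145 units (2.02-fold lower), and Gpx1, which encodes glutathione peroxidase, 789 and 525 units (1.502-fold lower).

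Genes known to be repressed through p21 and the DREAM complex, which silences cell cycle genes in arrested cells, were lower. Of the 18 measured, 16 were at least 1.5-fold lower (88.9%, beside 14.6% of all measured genes). At 2-fold, 13 were lower, beside 4.48% of all measured genes. Of the 18, 0 were at least 1.5-fold higher, beside 11.3%, and the median log2 ratio was -1.35. Because the low signal of cell cycle genes in these data was known when the list was drawn up, these counts are no independent evidence. Mcm5, a subunit gene of the replicative helicase, read 425 and 113 units (3.78-fold lower) on a probe set that may cross-hybridise and 145 and 34.6 units (4.19-fold lower) on the next. Aurka, a mitotic kinase gene, read 176 and 48.9 units (3.61-fold lower). Chek1 belongs to this list and to that of kinases and cofactors. These lower cell cycle genes and the higher Cdkn1a come from the same pair of arrays, and whether they are linked was not tested.

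**Figure D4:**
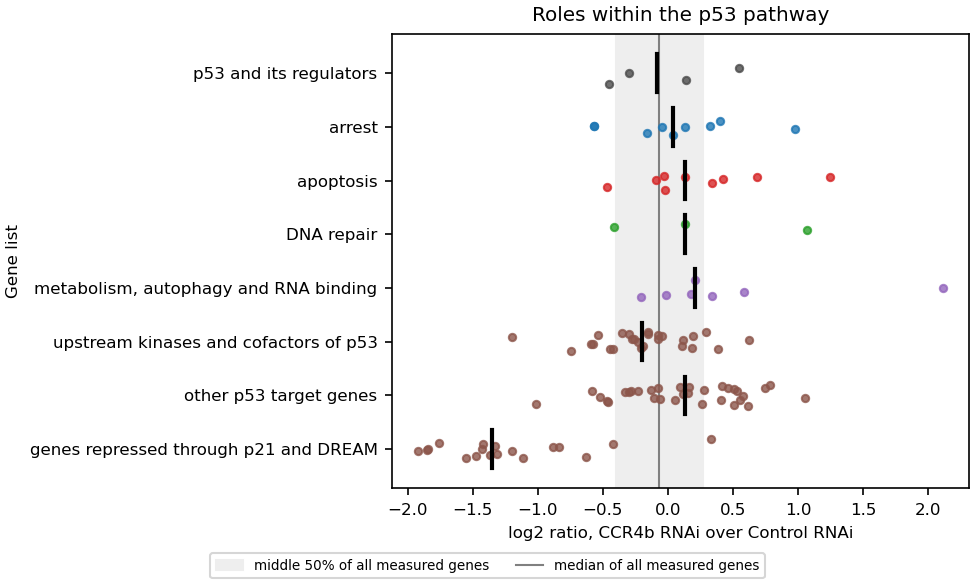
Log2 ratio of CCR4b RNAi over Control RNAi for the measured genes of each role and of the further lists, 1 point per gene. Black bars are list medians, the grey band the middle 50% of all measured genes and the grey line their median. The genes repressed through p21 and DREAM have a median of -1.35, whereas arrest and apoptosis genes have 0.040 and 0.13.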

How the data were processed

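Total RNA of 2 NIH3T3 cultures, 1 per group by the knockdown label, was hybridised to Affymetrix mouse arrays. The authors computed linear intensities per probe set in GCOS with a global normalization and deposited them, per the series design text in the labels. The sources used here give neither the GCOS version nor the normalization target. Array number limits the precision.

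Without rescaling, intensities under the floor were set to it, the 50th percentile of both arrays (8.07 units), and log2 ratios were taken. Each gene was represented by its brightest probe set (mean log2 signal over both arrays), and a ratio against the floor is a bound. Of the probe sets, 34958 have 1 gene symbol and were used, 932 have several and 9211 are unnamed here. The procedure was tested on simulated data with the same noise at every signal and with effects set only in genes well above the floor. That test therefore does not cover dim genes. Python 3.11.15, numpy 2.4.6, pandas 2.3.3 and statsmodels 0.14.6 were used.

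The genes, their roles, the further lists and the alternatives were chosen with earlier results of these data known. All listed genes are named, and of each further list up to 2 per direction past 1.5-fold, above the floor on both arrays. The alternatives were quantile normalization, division by array medians, loess (span 0.3), a floor at the 25th or the 75th percentile, log2 of signal plus 1, the median over probe sets, and leaving out identifiers ending in _x_at or _s_at, which can hybridise to several transcripts.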

Additional observations from a re-analysis of the deposited data

How the results depend on the processing

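The counts and medians of the listed genes, their roles and the further lists were recomputed under 8 alternatives, as were the single genes where they stayed measured (24 of the 32 under all 8). The half-site groups were not recomputed. The 2-fold counts, the roles other than arrest and apoptosis, and the further lists were added after the data were seen. The count of genes at least 1.5-fold higher was 4 to 7 in place of 5, and Zmat3, Cdkn1a, Polk and Phlda3 were among them under all 8. The count at least 1.5-fold lower, 0 as reported, was 2 with arrays divided by their medians, 3 with the median over probe sets (Mdm4, Gadd45b and Trp53inp1) and 1 without probe sets open to cross-hybridisation (Mdm4). The median of all listed genes, 0.13, was 0.24 under quantile normalization. The arrest median, 0.040, was -0.053 with arrays divided by their medians. It was 0.22 with no floor, where Rprm was counted too and Plk3, also dim, read 0.49. The apoptosis median, 0.13, was 0.29 under quantile normalization, 0.30 under loess and -0.023 with the median over probe sets. The scalings moved the median of all measured genes from -0.070 to between -0.16 and -0.0079. Zmat3, Eda2r, Polk, Cdkn1a and Phlda3 kept their sign wherever they were measured. With the median over probe sets, 3 genes near 0 as reported changed sign and passed 1.5-fold: Mdm4 (0.14 to -0.64), Trp53inp1 (0.13 to -0.66) and Sesn2 (-0.012 to 0.96). Mdm4 did the same without probe sets that may cross-hybridise. The count at least 2-fold higher, 3, was 1 with a floor at the 75th percentile. It was 2 with arrays divided by their medians, where Polk had a log2 ratio of 0.97. Under quantile normalization, loess and the median over probe sets it was 4, with Cdkn1a added (1.13, 1.16 and 1.04). The regulators' median, -0.081 over 4 genes, was 0.040 with a floor at the 75th percentile, where 3 stayed measured. It was -0.45 with the median over probe sets and -0.38 without probe sets open to cross-hybridisation. With a floor at the 25th percentile (-0.26) or no floor (-0.20), Cdkn2a was counted too, making 5 genes. Those medians are the ratio of Cdkn2a itself, which lay below the main floor on both arrays, so they show no shift of the other regulators. The repair median, 0.13, was 0.30 with the floor at the 75th percentile and 0.23 without those probe sets, and the metabolism median, 0.21, was 0.32 over probe sets. For kinases and cofactors, the higher count, 1, was 0 and the lower, 3, was 5 after division by medians, and the lower was 1 over probe sets. For other targets, the median, 0.13, was 0.23 under quantile normalization, 0.25 under loess and 0.032 over probe sets. Their higher count, 4, was 8, 8 and, with the floor at the 75th percentile, 0. Their lower count, 2, was 1 under quantile normalization and under loess, and 4 with the floor at the 25th percentile or no floor. The DREAM median, -1.35, was -1.24 under quantile normalization, -1.23 under loess and -1.21 over probe sets, and 13 to 16 of its genes were 1.5-fold lower throughout. Beyond the genes named as entering or leaving, the cause of these shifts was not tested. No paired analysis was possible because each group holds 1 array. Dim signals limit Eda2r, Tnfrsf10b, Plk3, Pmaip1 and Tigar, which were close to the floor or below it in the control.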

Other observations

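The CHR element, a short promoter motif through which DREAM acts on genes of late cell cycle phases, was searched as TTTGAA or TTCGAA on both strands of the same RefSeq windows. It stood in 8 of the 16 windows of the genes repressed through p21 and DREAM, in 3 of the 39 windows of the listed p53 genes (7.69%) and in 6316 of all 32851 windows (19.2%). Short motifs such as this occur often by their length alone, and a match is only a description of the window. Exact p53 half-sites stood in 3 of the 45 windows of the other p53 targets (6.67%), close to the share in all windows (8.36%), beside 33.3% for the listed genes.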
